A study of Mus musculus with 8 samples.

Results

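The genes described here encode thioredoxins, thioredoxin reductases, glutaredoxins, a peroxiredoxin and a peroxiredoxin-like protein, all of which act on sulfur atoms of cysteines. They were 10 of the 15978 rows of a differential expression table from mouse brain: Txn1, Txn2, Txnrd1, Txnrd2, Glrx, Glrx2, Glrx3, Glrx5, Prdx3 and Prxl2a, each found as a single row by its RefSeq accession. They were chosen by gene family with the deposited fold changes and p-values of this very comparison known, Txn2, Glrx2 and Prxl2a being among its smallest p-values, so the values of the members are a description and support nothing. RNA sequencing compared 5 male C9-BAC mice, which carried a bacterial artificial chromosome with human C9ORF72 and 500 G4C2 repeats, with 3 male wild-type mice, all with the strain background SJL/Bl6. The comparison addresses how the transgene with its repeat expansion alters the brain transcriptome; the labels name no age, brain region, founder line or batch. RNA was whole-tissue RNA, in which fewer cells of a type and less RNA per cell cannot be told apart, and libraries were strand-specific and made without poly(A) selection.

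Cells keep the sulfur atoms of protein cysteines reduced with a pair of parallel systems. Thioredoxins reduce disulfides through a pair of redox-active cysteines and are themselves reduced by the selenium-containing thioredoxin reductases at the expense of NADPH; glutaredoxins do similar work with glutathione. Peroxiredoxins destroy hydrogen peroxide with a reactive cysteine and draw their electrons from thioredoxin. Mitochondria hold a separate set of these enzymes, and neurons, with their high respiration, depend on it. One branch of the glutaredoxins carries a single active cysteine and hands iron-sulfur clusters to other proteins.

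The coding sequence at the redox site shows these classes. The stretches below were read from GENCODE vM21 transcripts (GRCm38) and are written 5′ to 3′ on the coding strand, with the codons of the redox site in capitals. In the thioredoxins, Glrx, Glrx2 and Prxl2a the capitals begin and end with a cysteine codon, in Glrx5 the closing codon is one for serine, in Prdx3 they begin with the codon of the peroxide-reactive cysteine, and in Txnrd2 the TGA in their middle is read as selenocysteine and not as a stop.
Txn1: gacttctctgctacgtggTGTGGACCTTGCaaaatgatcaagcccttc
Txn2: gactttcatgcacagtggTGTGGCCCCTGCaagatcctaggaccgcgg
Glrx: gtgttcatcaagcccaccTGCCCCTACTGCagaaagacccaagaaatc
Glrx2: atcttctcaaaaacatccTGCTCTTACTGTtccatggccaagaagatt
Glrx5: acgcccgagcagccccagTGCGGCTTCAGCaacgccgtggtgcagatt
Prdx3: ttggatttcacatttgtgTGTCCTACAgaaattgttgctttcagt
Prxl2a: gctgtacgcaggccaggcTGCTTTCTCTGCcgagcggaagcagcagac
Txnrd2: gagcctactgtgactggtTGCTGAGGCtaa

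The Txn1 stretch lies in exon 2 at chr4:57951803-57951850 on the minus strand, and that of Txn2 joins exons 2 and 3 within chr15:77924633-77927705 on the minus strand. Between Txn2 and Txn1, 29 of 48 bases of the stretch were identical, and between Glrx2 and Glrx 26 of 48. The Glrx stretch lies in exon 1 at chr13:75840017-75840064 on the plus strand, that of Glrx2 in exon 3 at chr1:143745074-143745121 on the plus strand, and that of Glrx5 in exon 1 at chr12:105032868-105032915 on the plus strand. The Prdx3 stretch joins exons 3 and 4 within chr19:60870103-60871427 on the minus strand, and that of Prxl2a joins exons 3 and 4 within chr14:40998973-41002471 on the minus strand. The Txnrd2 stretch ends the coding sequence in exon 17 at chr16:18477751-18477780 on the plus strand. Glrx3 holds 2 such sites, and both end in a serine codon as in Glrx5. No chromosome holds more than 1 of the 10 genes: Txnrd1 lies on chromosome 10 at 82833951 to 82897724 and Glrx3 on chromosome 7 at 137437573 to 137469631.

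No member shared a 50-base word with another member, but some shared sequence with other loci. Of the words of the longest transcript, Txn2, Txnrd1, Glrx5 and Prdx3 shared none with transcripts of other genes. Glrx3 shared 742 of 1636 words (45.4%) with a processed pseudogene, Gm12669, so its count is uncertain wherever reads were assigned to both. In Glrx2, 77 of 3466 words (2.22%) recurred in transcripts of 469 other genes. The sources used here do not say how reads that match several places were counted, or whether strand was used.

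All 10 members were well detected. The deposited level is the mean normalized count, the authors' mean over all 8 samples of counts divided by size factors; values per mouse, and so the spread between mice, were not analysed here. By that measure, in the authors' deposited table, the members ranged from 74.6 for Txnrd2 to 568 for Glrx3, with a median of 315.5 against 170.8 for all rows. Per kilobase of the longest transcript, Txn2 (mitochondrial thioredoxin) was highest at 346 and Glrx3 (a carrier of iron-sulfur clusters in the cytosol) next at 337. Prdx3 (255), Txn1 (246) and Prxl2a (243) followed close to one another on that scale, then Glrx at 147 and Txnrd1 at 145. The lowest levels per kilobase belonged to Glrx5 (62.1), Glrx2 (58.7) and Txnrd2 (39.1), all with mitochondrial products. The median level per kilobase was 62.1 for the 5 mitochondrial members and 243 for the 5 cytosolic members, beside 59.7 for all rows, all with the longest transcript.

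The order at the low end and the gap between compartments rest on transcript length. Glrx2 and Glrx5 have long transcripts, of 3515 and 2925 bases, beside shorter ones. With the median transcript length of each gene, Glrx2 stood at 223 and Glrx5 at 229 per kilobase, close to Txn1 at 246, while Txn2 (664) and Glrx3 (655) were again highest and Txnrd2 (76.3) lowest. With that length the median level per kilobase was 229 for the mitochondrial members and 246 for the cytosolic members. Neuron and astrocyte markers were abundant: the neuron genes Snap25, Syt1, Rbfox3 and Eno2 lay between 1806 and 13868 mean normalized counts and the astrocyte genes Gfap, Aqp4, Aldoc and Slc1a3 between 1072 and 8067 in the authors' deposited table. Oligodendrocyte genes ran from 92.7 (Mog) to 9162 (Mbp), and choroid plexus genes from 2.03 to 35.7. Myh7, listed as a gene of other organs, stood at 167. Of 25 marker genes of brain cells, blood and other organs with a p, 0 were under 0.05 unadjusted, beside 1.50% of all rows.

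**Figure D1:**
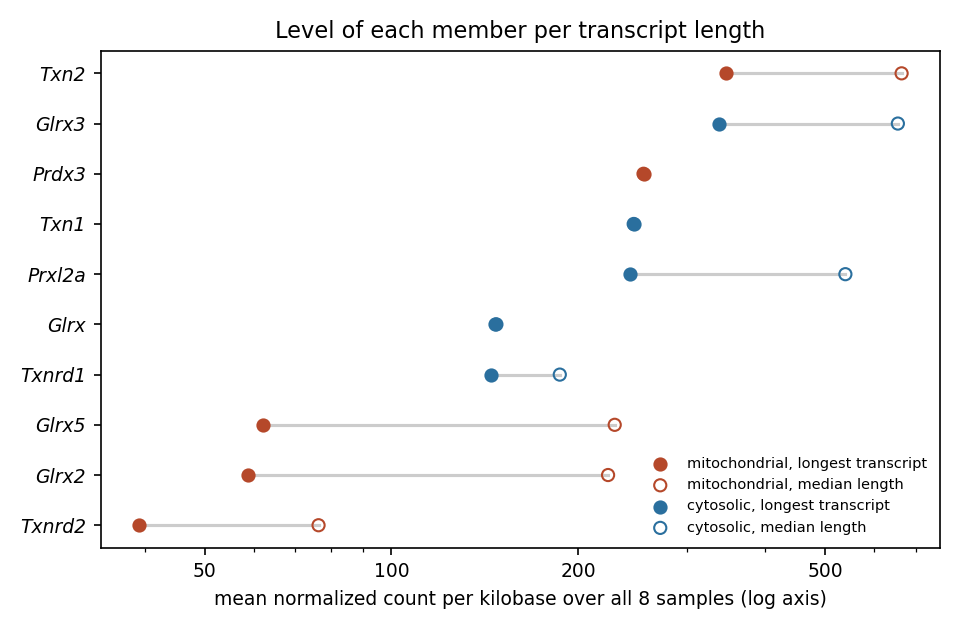
Mean normalized count per kilobase of each member over all 8 samples, on a log axis, with the length of the longest transcript (filled circles) or the median transcript length (open circles). Txn2 and Glrx3 are highest and Txnrd2 lowest with either length, while Glrx2 and Glrx5 move most.

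No member passed a DESeq2 adjusted p of 0.05 between C9-BAC and wild-type brain, and neither did any other row (0%); 3 of the 10 members and 1.50% of all 15944 rows with a p had a p under 0.05 before adjustment in the authors' deposited table. The background was 0.659% for positive and 0.840% for negative fold changes, and the 3 members were Txn2 on the positive side with Glrx2 and Prxl2a on the negative side. The adjusted p from DESeq2 was 0.9997 for every member. Neither header nor label states which genotype was divided by the other, so each sign is as deposited and says nothing of which genotype was higher. Standard errors are written SE. The SE values of the table reach 0.11 at most and are smallest for rows of low count, with a median of 0.0516 below a mean normalized count of 10; fold changes pulled toward 0 by a prior take this form, and then understate the differences.

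Of the thioredoxins, the mitochondrial one had a value far from 0 for its SE and the cytosolic one did not. Txn2, which reduces mitochondrial peroxiredoxins, had a log2 fold change of 0.24 (SE 0.09) in the authors' deposited table (95% interval 0.07 to 0.42, DESeq2 p = 0.00713, adjusted p = 0.9997). That is a fold of 1.18, and the p ranked 17 of 15944. Txn1, the cytosolic thioredoxin, had a log2 fold change of -0.04 (SE 0.10) in the authors' deposited table (95% interval -0.23 to 0.15, DESeq2 p = 0.691). A test of the difference between both genes would need values per mouse and was not run. Their reductases lay near 0: on the log2 scale the authors' deposited table has Txnrd2, the mitochondrial one, at -0.03 (SE 0.11) and Txnrd1, the cytosolic one, at -0.01 (SE 0.11). The 95% interval of Txnrd2 ran from -0.24 to 0.19 and that of Txnrd1 from -0.22 to 0.20, so both held 0.

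Among the 4 glutaredoxins, Glrx2 had the largest absolute value. Glrx2 makes a mitochondrial glutaredoxin that binds an iron-sulfur cluster, with further products outside mitochondria, and had a log2 fold change of -0.27 (SE 0.11) in the authors' deposited table (95% interval -0.48 to -0.06, DESeq2 p = 0.0106, adjusted p = 0.9997). This is a fold of 0.828, and the p ranked 27. Its row joins 4 RefSeq transcripts, so products for different compartments cannot be told apart. Glrx, the cytosolic dithiol glutaredoxin, had a log2 fold change of 0.05 (SE 0.11) in the authors' deposited table. For the single-cysteine class, the authors' deposited table gave log2 fold changes of -0.07 for Glrx5 (mitochondrial, SE 0.11) and 0.02 for Glrx3 (cytosolic, SE 0.10). Both intervals held 0, from -0.27 to 0.14 for Glrx5 and from -0.17 to 0.21 for Glrx3.

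The peroxiredoxin and the peroxiredoxin-like member were both negative. Prxl2a, a peroxiredoxin-like protein with a cysteine pair, had the largest absolute fold change of the 10, a log2 value of -0.30 (SE 0.10) in the authors' deposited table (95% interval -0.50 to -0.10, DESeq2 p = 0.0029, adjusted p = 0.9997). The fold was 0.812 and the p ranked 11. Prdx3 is a mitochondrial peroxiredoxin that Txn2 recycles. Its log2 fold change was -0.12 (SE 0.10) in the authors' deposited table (95% interval -0.32 to 0.07, DESeq2 p = 0.218).

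**Figure D2:**
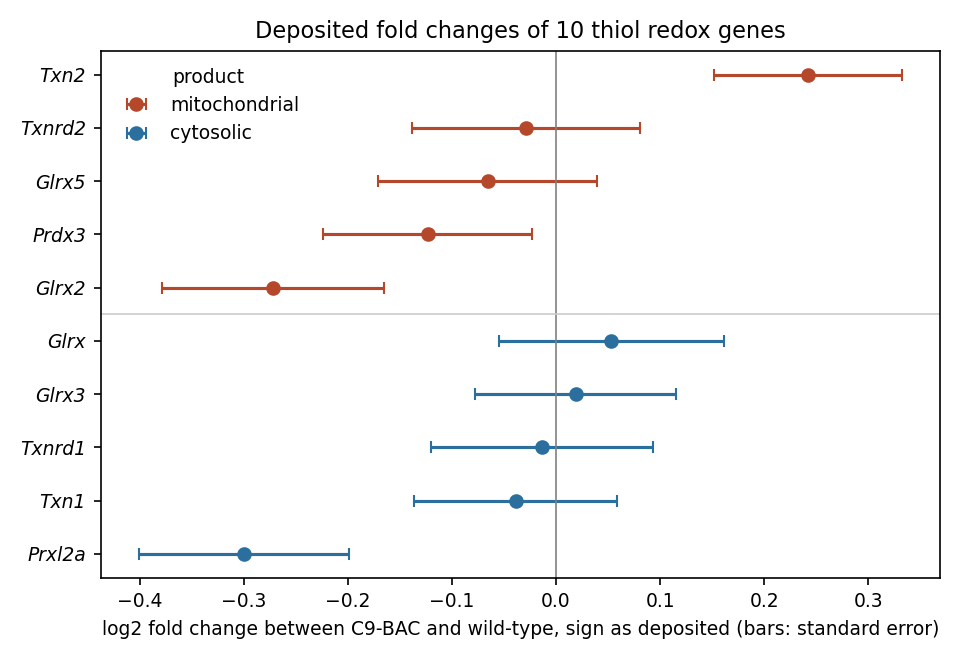
Deposited log2 fold change of each member with its standard error (bars), mitochondrial members above and cytosolic members below, sign as deposited. Txn2 (0.24), Glrx2 (-0.27) and Prxl2a (-0.30) lie farthest from 0, 2 of them mitochondrial and of opposite sign.

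Compartment did not order the fold changes. The 5 mitochondrial members had 1 positive and 4 negative log2 fold changes, a median of -0.07 and a range from -0.27 to 0.24 in the authors' deposited table. The 5 cytosolic members had 2 positive and 3 negative ones, a median of -0.01 and a range from -0.30 to 0.05 in the authors' deposited table. The groups overlapped, and the medians differed by -0.05, mitochondrial minus cytosolic, where the median standard error of a single member was 0.103. With means the difference was 0.01, of the other sign. The 10 members together had a median of -0.03 beside -0.0044 for all rows, and 30.0% of them were positive beside 47.4% of all rows. Members are not replicates and were chosen with results known, so no test was made of these differences.

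Transcript GC content moved with the statistic over rows whose mean normalized count was at least 10, and rows of lower count were left out. The members lie in 4 of 5 bins of GC content of equal size, with none in the highest. Over the 13627 rows used, Spearman's rho between GC content and the deposited Wald statistic (the ratio of log2 fold change to SE) was 0.417, a description across genes. Glrx2, at 42.0% GC, lay in the bin of lowest GC content, where 20.8% of rows were positive and the median statistic was -0.56. GC content is that of the longest transcript. For Glrx2 this has 3515 bases beside a median transcript length of 924, and the GC content of shorter transcripts was not used. Prdx3 (45.5%), Glrx (46.2%), Glrx3 (46.3%), Txn1 (47.2%) and Prxl2a (47.4%) lay in the next bin, with 37.1% positive. Txn2 (55.9%), Txnrd2 (55.7%) and Glrx5 (53.0%) lay in bin 4, with 62.8% positive, and Txnrd1 (49.7%) in the middle one. The statistic itself was 2.69 for Txn2, -2.56 for Glrx2 and -2.98 for Prxl2a in the authors' deposited table, while rows of like GC content had a median of 0.34, -0.53 and -0.18 for the same genes in turn.

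With the GC trend taken off, the log2 fold changes were 0.21 for Txn2, -0.22 for Glrx2 and -0.28 for Prxl2a, and all 10 members had the sign they have in the table. When the trend was removed and the statistic then centred and scaled to its own spread, no member passed, with adjusted p-values of 0.179 for Txn2, 0.328 for Glrx2 and 0.0724 for Prxl2a. At an unadjusted p of 0.05 the members' count was 3 under this setting, where 6.49% of 13627 rows were called, and 3 with centring and scaling alone, where 4.95% of 13704 rows were. Both settings divide the statistic by its own spread, so these shares are on another scale than the 1.50%. The part of GC content in these values was not tested beyond this.

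**Figure D3:**
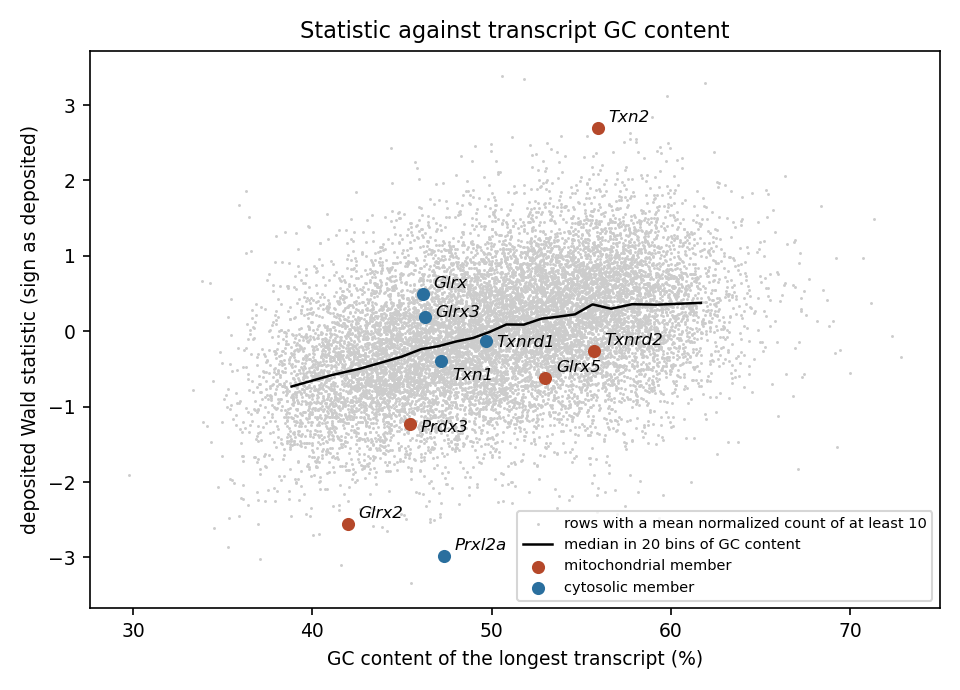
Deposited Wald statistic against the GC content of the longest transcript for rows whose mean normalized count was at least 10 (grey), with the median in 20 bins of GC content (line) and the 10 members (coloured). Txn2 lies above the line at 55.9% GC, and Glrx2 (42.0%) and Prxl2a (47.4%) lie below it.

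The other genes of these pathways showed no call. Of 141 listed genes outside the 10 members, 132 were analysed. Of these, 0 passed a DESeq2 adjusted p of 0.05 and 0 reached 0.05 unadjusted, per the authors' deposited table, beside the 1.50% of all rows. They had 56 positive and 76 negative log2 fold changes with a median of -0.02, from -0.17 to 0.20. Txn2, Glrx2 and Prxl2a lay outside that range. They were chosen with their values known and are not in this list, so their place outside it supports nothing.

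No relative or partner of the members named here had an unadjusted DESeq2 p under 0.05 in the authors' deposited table. Txnrd3, a reductase of both thioredoxin and glutathione, had a log2 fold change of 0.0024 and Txnip, the inhibitor of thioredoxin, one of 0.04, each taken from the authors' deposited table. For ribonucleotide reductase, which thioredoxin and glutaredoxin serve, Rrm1 had a log2 value of -0.13 (DESeq2 p = 0.214) in the authors' deposited table. Outside the members, Txndc2 had the smallest p of the thioredoxin group (DESeq2 p = 0.18) at a mean normalized count of only 2.32 in the authors' deposited table. In log2 terms the authors' deposited table put glutathione reductase, Gsr, at -0.04, glutathione synthetase, Gss, at -0.15 and Chac1, which breaks glutathione down, at 0.12.

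The 5 other peroxiredoxins lay between -0.10 and 0.0077. The authors' deposited table gave log2 fold changes of -0.10 for Prdx1, -0.06 for Prdx2, 0.0077 for Prdx4 (of the endoplasmic reticulum), -0.03 for Prdx5 and -0.0025 for Prdx6. Srxn1, the sulfiredoxin that restores overoxidized peroxiredoxins, had a log2 fold change of -0.11 (SE 0.11) in the authors' deposited table. For the relatives of Prxl2a the authors' deposited table gave 0.04 (Prxl2b) and -0.07 (Prxl2c), also as log2 fold changes.

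Iron-sulfur cluster assembly, the route that Glrx5 and Glrx3 serve, had 16 positive and 10 negative genes. The group's median log2 value was 0.03 in the authors' deposited table, and its median GC content was 52.1% beside 50.3% for all rows. Bola3 and Bola2, partners of Glrx5 and Glrx3, had log2 values of 0.10 and 0.03 in the authors' deposited table, while the ferredoxin gene Fdx1 (-0.14) and the cluster carrier Nfu1 (0.11) had the smallest p-values of the group. Enzymes that supply NADPH were 4 positive and 5 negative, and the mitochondrial pair Me3 (malic enzyme) and Nadk2 (NAD kinase) had log2 fold changes of 0.15 and -0.16 per the authors' deposited table.

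Nrf2 is the transcription factor that drives many thiol redox genes, Txnrd1 and Srxn1 among them. Its pathway had 4 positive and 7 negative genes and a median log2 value of -0.03 in the authors' deposited table. The median GC content there was 53.3%. Nfe2l2, the gene of Nrf2, stood at 0.0021 and its inhibitor Keap1 at 0.07 on the log2 scale, and the repressor Bach1 (-0.17) and the small Maf gene Mafk (-0.10) had the smallest p-values in the authors' deposited table. The core of the antioxidant response element, TGACNNNGC on either strand, was found in 3 of 20 promoter windows of the members (15.0%). These belonged to 2 of the 10 genes, Txnrd1 and Prxl2a, beside 2069 of 12557 genes with a row in the authors' deposited table. The Prxl2a windows with a match overlap, so the same match may count more than once. Among 15927 windows of genes in the authors' deposited table the share was 13.9%. Among all 32851 RefSeq promoter windows of the same length (GRCm38.p6) it was 12.4%. A match describes letters in the window and is no binding site.

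Glutathione peroxidases, superoxide dismutases and catalase had a median log2 fold change of 0.0021, with 6 positive and 4 negative genes in the authors' deposited table. Superoxide dismutase Sod1, of the cytosol, had the smallest p of all 132 genes, at a log2 fold change of 0.20 (SE 0.11, DESeq2 p = 0.0631) in the authors' deposited table. The mitochondrial Sod2 stood at -0.08 on that scale. The 4 methionine sulfoxide reductases were 3 positive and 1 negative, led by Msrb2 (0.17) and Msrb3 (0.08), both log2 fold changes of the authors' deposited table. Thiol oxidoreductases of the endoplasmic reticulum were 4 positive and 17 negative, with a median log2 value of -0.04 in the authors' deposited table and a median GC content of 47.0% beside 50.3% for all rows. Tmx1 (-0.17) and Txndc15 (-0.14) had the smallest p-values there. Genes of selenoproteins and of their synthesis, on which both reductases depend, were 7 positive and 12 negative, with a median GC content of 48.2%. The authors' deposited table put Selenop at -0.14 and Selenow at 0.12 as log2 fold changes.

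**Figure D4:**
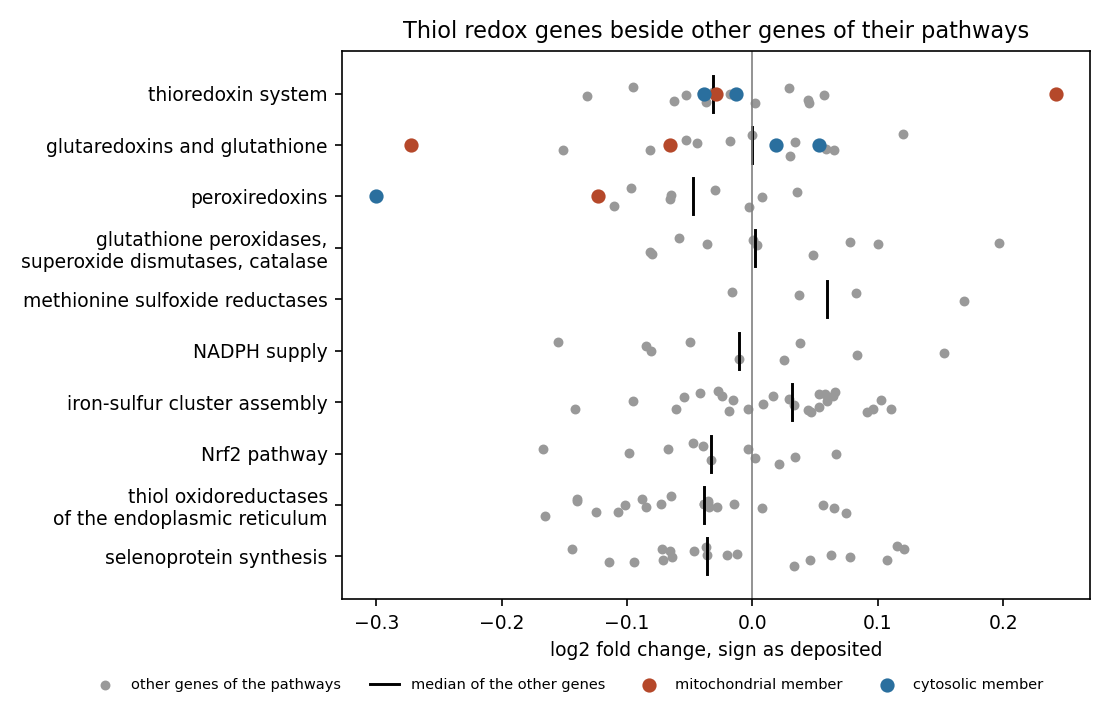
Deposited log2 fold changes of the 10 members (coloured) and of 132 other genes of their pathways (grey, 1 row per group, points spread vertically for legibility), with the median of the other genes in each group (bar). The other genes lie between -0.17 and 0.20. Txn2, Glrx2 and Prxl2a, chosen with their values known, lie beyond them.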

How the data were processed

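Brain RNA of 5 C9-BAC and 3 wild-type mice was sequenced. The submitters' processing notes list Trimmomatic, Bowtie2, DESeq and DESeq2, and build mm10; versions, read counter, annotation and filters are unknown here. The authors deposited 1 table for the whole comparison, with no values per mouse, so depth per sample is unknown; its mean normalized counts sum to 9226666. The mean normalized count is a signal made by the authors, per the file headers. Fold changes and their standard errors were deposited on the log2 scale. The Wald statistic is a score deposited by the authors, as is each p-value, raw and adjusted. On every row the statistic matched the ratio of fold change to standard error within 8.3e-07, and the deposited adjusted p matched a Benjamini-Hochberg adjustment over 15944 rows within 5.3e-12.

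Gene symbols came from RefSeq accessions (GRCm38.p6, the assembly also called mm10) for 15857 rows and from GENCODE vM21 for 73. GC content and length are those of the longest GENCODE transcript of a row's accessions, found for 99.3% of rows. The members, lists and tests were chosen with earlier results of these data known. All members are named, with relatives, partners and the 2 genes of smallest p in each group of the wider list. Alternatives rescaled the statistic by its median and MAD or removed its GC trend (medians of 20 bins), over rows whose mean normalized count was at least 10. The trend removal with rescaling was tested on simulated statistics whose planted shifts exceeded 3.38, the largest absolute statistic deposited here. That test says nothing of shifts the size of the members' values. Intervals of 95% are normal intervals from the deposited standard error. Each sample has its own number and is taken as 1 mouse; otherwise p-values would cover only technical spread. Python 3.11.15, numpy 2.4.6, pandas 2.3.3, scipy 1.17.1 and matplotlib 3.10.9 were used. One result on sequence shared between loci is not reported here.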

Additional observations from a re-analysis of the deposited data

How the results depend on the processing

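No member and no other gene of the pathways passed under any setting run (adjustment over rows whose mean normalized count was at least 10, the statistic centred and scaled by its MAD, and the GC trend taken off). With the statistic centred and scaled, adjusted p-values were 0.535 for Txn2, 0.535 for Glrx2 and 0.294 for Prxl2a. The count of members with an unadjusted p under 0.05 was 3 under each rescaling. Of rows whose mean normalized count was at least 10, 4.95% of 13704 were under it. With the GC trend off it was 6.49% of 13627 such rows. Of the other pathway genes, 5 were under 0.05 with the statistic centred and scaled and 6 with the GC trend also taken off, against 0 as deposited; these settings divide the statistic by 0.789 and 0.679, the second also removes the GC trend, and some p-values rose; what each step adds to the counts was not tested. The median log2 fold change of the mitochondrial members lay between -0.08 and -0.05 under its alternatives. That of the cytosolic members was -0.06 as a mean and 0.0026 without Prxl2a. The difference of medians was -0.07 without Txn2, Glrx2 and Prxl2a. Every member had the same sign with the GC trend off and when centred on rows of like count. No paired analysis was possible because the genotypes share no replicate number and only mean values per gene were analysed; without values per mouse, no mouse could be left out. Depth per sample is unknown, and fold changes of this form set no upper bound on a difference.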
